A study of Homo sapiens with 8 samples.

Results

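The transcripts of 39 genes that carry glucose into the cell and process it were followed in MDA-MB-231 breast cancer cells with and without arginine starvation. These genes encode glucose and lactate transporters, the glycolytic enzymes with their isozymes, the regulators PFKFB2 to PFKFB4 and PDK1 to PDK4, and enzymes of the pentose phosphate pathway. They were taken from a written list by symbol, and all 39 were found among the 23393 genes of the count table and passed the filter on low counts. RNA-seq had been done on 8 libraries in 4 groups of 2, namely parental cells in full medium (DMEM with high glucose and serum), parental cells given arginine deiminase (ADI, an enzyme that destroys arginine in the medium) at 0.3 µg/mL for 48 h, ρ0 cells in full medium, and ρ0 cells given the same ADI treatment. MDA-MB-231 is a triple-negative breast cancer line that makes little ASS1 and therefore depends on arginine from outside. The ρ0 cells are a derivative without mitochondrial DNA and were 1 clone, number 27, so loss of mitochondrial DNA and other features of that clone cannot be told apart in any comparison between the lines. The labels give 1 growth medium for all 8 libraries, but the study's methods state that the ρ0 line was kept with added sodium pyruvate, uridine and ethidium bromide, and an effect of these additions on the line differences cannot be told apart from the line either. The labels do not say whether the 2 libraries of a group came from separate cultures, so the p-values measure the spread between libraries, which may be technical. That spread was estimated for each gene over all 8 libraries together. The p-values and standard errors of 1 line therefore also draw on the libraries of the other.

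Total counts per library lay between 25259503 and 31022155. Replicates were close in 3 groups, where the biological coefficient of variation (the spread between libraries beyond counting noise) was 5.16% in parental control, 2.29% in parental starved and 1.84% in ρ0 starved cells. The ρ0 control libraries stood apart from each other with 25.1%, and 13 of the 39 genes differed between them by more than 0.3 on the log2 scale, against 1 gene in parental control and 0 in the other groups. Called values that use the ρ0 control group are therefore also given without each of its libraries where this moves them by more than 1.5 times. Such a fit has 1 ρ0 control library, which is assumed to vary like the other groups, so only its values are given and its calls are not used as support. The MDA-MB-231 label was checked against 6 mesenchymal markers, of which VIM, CD44, CAV1, AXL and ZEB1 had at least 1986 counts in every library and SPARC between 1 and 73. Of 6 luminal markers, ESR1 had at most 6 counts and PGR at most 1, while GATA3 had 121 to 579 and ERBB3 had 668 and 770 counts in parental control and 39 to 128 in the other libraries. FOXA1 had 212 to 277 counts in parental and 1 to 4 in ρ0 libraries, whereas CDH1 (E-cadherin) had 0 to 2 in parental and 104 to 457 in ρ0 libraries. Among markers of other cell types, CD3E was at 0 in every library and the summed level of the list was 0.58 to 3.79 CPM. The 13 protein genes of the mitochondrial genome were not analysed here, so the ρ0 label was not checked.

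As background, glycolysis splits glucose into pyruvate. Hexokinases trap the sugar as glucose 6-phosphate, phosphofructokinase commits it to the pathway, aldolase cleaves it, and the lower enzymes recover ATP. Pyruvate is either burned in mitochondria, which the pyruvate dehydrogenase kinases (PDKs) restrain, or reduced by lactate dehydrogenase and exported as lactate by monocarboxylate transporters. The pentose phosphate pathway branches from glucose 6-phosphate and makes NADPH and ribose for nucleotides. Cells without mitochondrial DNA cannot respire and draw their ATP from glycolysis.

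Under arginine starvation, 27 of the 39 genes had a log2 fold change below 0 in parental cells and 25 in ρ0 cells. Over all 15262 tested genes, 8050 and 7817 were below 0. Fewer of the 39 were called lower in ρ0 cells, where fewer of all tested genes were called lower as well. In parental cells, 24 of the 39 genes fell and 7 rose at an adjusted p under 0.05 (edgeR's quasi-likelihood test with Benjamini-Hochberg adjustment over all 15262 genes tested, which gives every adjusted p reported here). Of all tested genes, 35.5% were called lower and 30.4% higher in this comparison. The median log2 fold change of the 39 genes was -0.52, against -0.07 over all tested genes. With total counts in place of TMM scaling both moved down, to -0.69 and -0.23, and the calls stayed at 24 and 7. Over all tested genes, 6261 were then called lower and 3777 higher. With a log2 fold change beyond 1 as well, 10 genes were lower and 4 higher (background 22.1% and 12.7%). In ρ0 cells, 17 genes fell and 7 rose (background 22.1% and 19.2%), the median was -0.28 against -0.02 over all genes, and 3 genes were lower and 2 higher beyond a log2 fold change of 1 (background 8.19% and 4.22%). The 39 genes together took 1.64% and 1.68% of all counts in the parental control libraries and 1.11% and 1.13% in the starved ones. In ρ0 cells the corresponding values were 1.69% and 1.79% in control and 1.27% and 1.26% in starved libraries. In each line the control and starved libraries did not overlap. The summed levels of the marker lists moved in the same direction, but not every marker did. ZEB1 rose, from a mean of 96.8 to 204 CPM in parental and from 70.0 to 110 CPM in ρ0 cells. AXL was higher in starved parental cells (728 to 836 CPM), while VIM, CD44, CAV1 and SPARC fell there. Of the luminal markers, GATA3 and FOXA1 were higher in starved parental cells, while ERBB3 and ESR1 were lower. The summed level of the mesenchymal markers went from 3620 and 3710 to 2200 and 2200 CPM in parental cells and from 6560 and 7610 to 5430 and 5290 CPM in ρ0 cells, while that of the luminal markers went from 35.0 and 35.3 to 16.1 and 17.2 CPM and from 34.3 and 37.0 to 17.2 and 16.3 CPM. Markers of other cell types summed to 3.45 and 3.79 CPM in parental control, 0.594 and 0.851 in parental starved, 3.43 and 1.86 in ρ0 control, and 0.608 and 0.580 in ρ0 starved libraries. The part of these markers in the results was not tested. In bulk cultures, fewer cells with a transcript and less of it per cell cannot be told apart.

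Between the lines the picture was mixed in full medium and tilted upward in ρ0 cells once both were starved. In full medium, 14 genes were higher and 11 lower in ρ0 than in parental cells (background 30.5% and 31.8%), of which 1 was higher and 3 lower beyond a log2 fold change of 1 (background 13.6% and 17.3%). When both lines were starved, 20 were higher and 11 lower (background 32.9% and 33.5%), of which 10 were higher and 4 lower beyond that fold (background 18.7% and 16.8%). The median difference was 0.14 in full medium and 0.43 under starvation, against -0.01 over all genes in both. The starvation response itself was tested for a difference between the lines as an interaction, ρ0 minus parental. It was higher in ρ0 cells for 15 genes and lower for 5 (background 21.6% and 18.8%). These comparisons share libraries, since each group enters more than 1 of them.

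**Figure D1:**
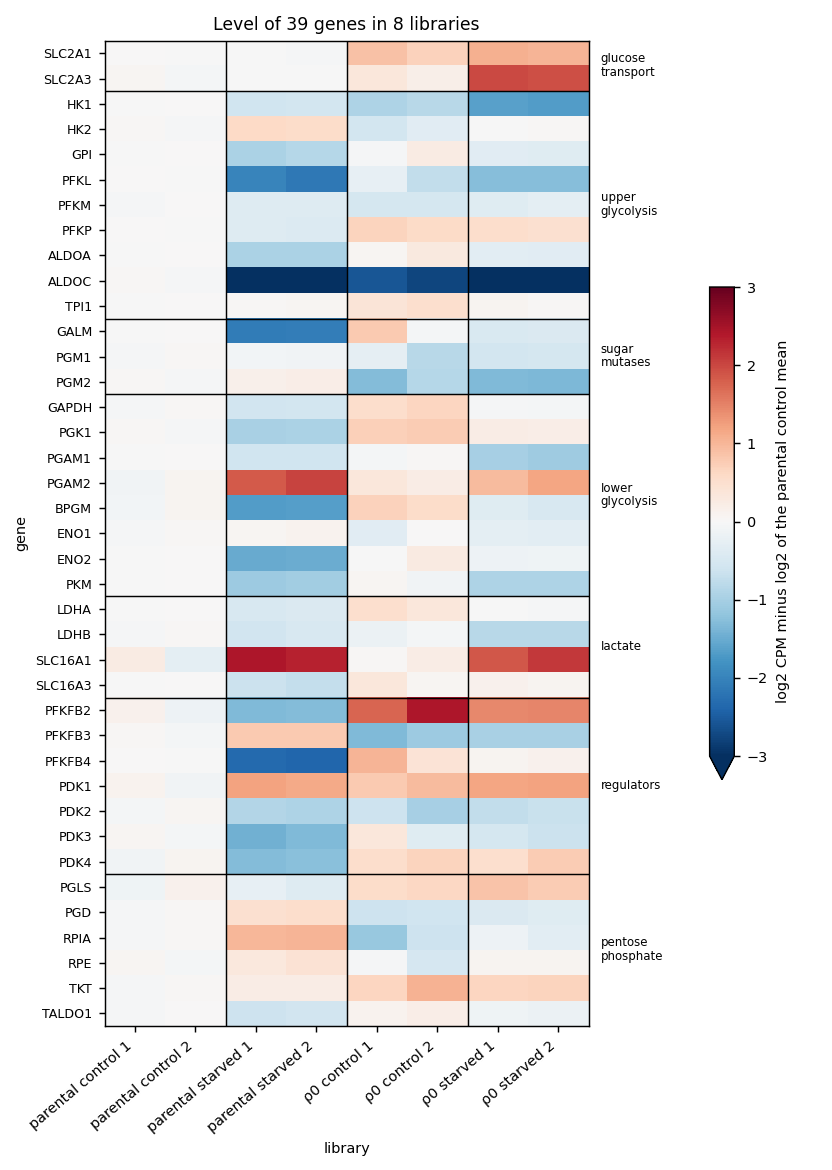
Level of each of the 39 genes (rows, grouped by role) in the 8 libraries (columns), as log2 CPM minus the log2 of the gene's mean in parental control cells. Blue is lower and red higher than parental control, and the scale stops at -3, which ALDOC passes in all 4 starved libraries. The 2 libraries of a group are alike for most genes outside ρ0 control, where GALM, PFKFB2, PFKFB4 and PDK3 differ most visibly. In parental control, the scarce SLC16A1 differs by 0.55 on the log2 scale.

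Joined across the lines, 16 genes fell in both, namely ALDOA, ALDOC, BPGM, GALM, GAPDH, GPI, HK1, LDHA, LDHB, PFKFB2, PFKFB4, PFKL, PGAM1, PGK1, PKM and TALDO1. The 5 that rose in both were HK2, PDK1, PGAM2, RPIA and SLC16A1. No gene was called in opposite directions. A call was made in parental cells alone for 10 genes, with PFKFB3 and PGD higher and ENO2, PDK2, PDK3, PDK4, PFKM, PFKP, PGLS and SLC16A3 lower. In ρ0 cells alone, SLC2A1 and SLC2A3 were called higher and TPI1 lower. ENO1, PGM1, PGM2, RPE and TKT were called in neither. These joint counts were not made over all tested genes, so they have no background share. A call in 1 line alone does not show that the lines differ, and the test of the difference is the interaction. It was not called for the 19 genes SLC2A1 (0.27), HK1 (-0.21), HK2 (-0.11), PFKP (0.28), PGM1 (0.08), PGM2 (-0.45), GAPDH (-0.07), ENO1 (-0.23), PKM (0.17), LDHA (0.02), LDHB (-0.20), SLC16A1 (-0.49), PFKFB2 (0.64), PDK3 (0.76), PGD (-0.29), RPIA (-0.38), RPE (-0.05), TKT (-0.43) and TALDO1 (0.30), given as log2 values. The calls depended on which libraries were fitted. With the parental libraries alone, ENO1 (0.11), PGM2 (0.20), RPE (0.41) and TKT (0.26) passed 0.05 as higher under starvation. Fitted to the ρ0 libraries alone, ALDOA, GPI, GALM, LDHA, PFKFB2, PFKFB4 and TALDO1 of the 16, HK2, PGAM2, PDK1 and RPIA of the 5, and SLC2A1 and TPI1 did not pass 0.05.

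Both glucose transporters were higher in ρ0 than in parental cells in each condition. SLC2A3 encodes GLUT3, a high-affinity glucose transporter. Its level was 72.6 and 66.5 CPM in parental control and 68.9 and 69.4 CPM in parental starved libraries, and it was 88.1 and 78.2 CPM in ρ0 control and 273 and 268 CPM in ρ0 starved libraries. Only the ρ0 starved libraries were high, and the parental groups overlapped. Starvation raised SLC2A3 in ρ0 cells 3.25-fold, or 1.70 ± 0.09 on the log2 scale (± standard error, adjusted p = 5.44e-05, edgeR), while its value in parental cells was -0.01 ± 0.09 (adjusted p = 0.936). The interaction was 1.71 (adjusted p = 0.000232, edgeR), and SLC2A3 was 3.91-fold higher in starved ρ0 than in starved parental cells (adjusted p = 2.87e-06). In full medium it was higher by 0.26 (adjusted p = 0.0343, edgeR), or by 0.17 or 0.39 without 1 of the ρ0 control libraries. SLC2A1 encodes GLUT1, the transporter of most proliferating cells. It was at 430.3 and 423.5 CPM in parental control, 426 and 415 in parental starved, 780.1 and 694 in ρ0 control, and 892 and 864 in ρ0 starved libraries. Both ρ0 groups lay above both parental groups, by a log2 difference of 0.79 in full medium (adjusted p = 0.000146, edgeR) and 1.06 when starved (adjusted p = 3.01e-05). Its rise in starved ρ0 cells was small (0.25, adjusted p = 0.0455, edgeR) and did not pass 0.05 with upper quartile scaling, where SLC2A1 had an adjusted p of 0.0613.

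In upper glycolysis, 7 of 9 enzymes fell and 1 rose in parental cells (background 35.5% and 30.4% of all tested genes). In ρ0 cells 6 fell and 1 rose (background 22.1% and 19.2%). ALDOC, the brain-type aldolase, fell furthest of the 39 genes. It went from 28.5 and 26.8 CPM in parental control to 1.19 and 1.24 CPM in parental starved cells, and from 4.68 and 4.12 to 1.45 and 1.66 CPM in ρ0 cells. All ρ0 libraries were below the parental control, and both starved groups were near the same low level, at 30 to 43 counts per library. This was a 22.7-fold fall in parental cells (log2 -4.50 ± 0.16, adjusted p = 5.45e-06, edgeR) and a 2.83-fold fall in ρ0 cells (log2 -1.50 ± 0.16, adjusted p = 0.000476). In full medium ALDOC was 6.28-fold lower in ρ0 than in parental cells (adjusted p = 5.87e-06, edgeR), and the interaction of 3.0 (adjusted p = 0.000247) was the largest among the 39 genes. The main aldolase of most tissues, ALDOA, fell by 0.95 and 0.51 on the log2 scale in parental and ρ0 cells.

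PFKL, the liver-type phosphofructokinase, was at 137 and 134 CPM in parental control, 34.0 and 30.4 in parental starved, 114 and 80.6 in ρ0 control, and 55.6 and 55.4 in ρ0 starved libraries. It fell in both lines, by 2.07 in parental cells (adjusted p = 3.33e-05, edgeR) and by 0.81 in ρ0 cells (adjusted p = 0.00519), with an interaction of 1.26 (adjusted p = 0.00421). PFKL was the 1 gene called in opposite directions between the lines, lower in ρ0 cells in full medium (-0.48, adjusted p = 0.0261, edgeR) and higher when both were starved (0.79, adjusted p = 0.00294). Without 1 ρ0 control library or the other, its full-medium value was -0.75 or -0.20 and its ρ0 starvation value -0.54 or -1.02. The muscle and platelet isozymes PFKM and PFKP both fell by 0.40 in parental cells and were not called in ρ0 cells, where they had values of 0.20 and -0.12. For PFKM the lines differed in response (interaction 0.60, adjusted p = 0.00391, edgeR), and for PFKP this was not called (0.28, adjusted p = 0.0605).

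The hexokinases moved in opposite directions. HK1, the housekeeping form, had 461 and 474 CPM in parental control, 310.4 and 320 in parental starved, 247 and 264 in ρ0 control, and 151 and 147 in ρ0 starved libraries. The 4 groups did not overlap, and ρ0 starved cells had the least. HK1 fell by 0.57 in parental (adjusted p = 0.000376, edgeR) and by 0.78 in ρ0 cells (adjusted p = 0.000357), and it was lower in ρ0 cells by 0.87 in full medium and by 1.08 when starved. HK2, the inducible form bound to mitochondria in many tumors, had 276 and 260.0 CPM in parental control, 402 and 394 in parental starved, 182 and 211 in ρ0 control, and 267 and 274 in ρ0 starved libraries. Starvation raised HK2 by 0.57 (adjusted p = 0.00104, edgeR) and 0.46 (adjusted p = 0.00632). Neither hexokinase gave a called interaction, with -0.21 for HK1 and -0.11 for HK2. GPI, which turns glucose 6-phosphate into fructose 6-phosphate, fell by 0.91 in parental and 0.45 in ρ0 cells, and the ρ0 value of -0.45 became -0.58 or -0.29 without 1 of the ρ0 control libraries. TPI1, which interconverts the triose phosphates, was at 0.04 in parental cells and fell by 0.38 in ρ0 cells.

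Of the 3 sugar mutases listed with this stage, only GALM was called under starvation in either line in the fit of all libraries. GALM, which interconverts the anomers of free sugars, was at 19.1 and 19.5 CPM in parental control, 4.47 and 4.57 in parental starved, 33.5 and 18.6 in ρ0 control, and 14.1 and 14.2 in ρ0 starved libraries. The ρ0 control libraries differed from each other by 0.85 on the log2 scale, the widest replicate gap of the 39 genes. GALM fell by 2.09 in parental cells (adjusted p = 0.000313, edgeR). Its ρ0 value of -0.88 (adjusted p = 0.0242, edgeR) became -0.39 or -1.23 without 1 of the ρ0 control libraries. PGM2, a phosphopentomutase, was at 152 and 143 CPM in parental control and 163 and 168 in parental starved, but at 59.8 and 81.8 in ρ0 control and 58.6 and 57.7 in ρ0 starved libraries. All ρ0 libraries were below all parental ones, by 1.06 in full medium (adjusted p = 0.000409, edgeR) and by 1.51 when starved (adjusted p = 6.36e-05). PGM1, which links glycogen to glycolysis, was lower in ρ0 cells by 0.52 in full medium and 0.44 when starved, and the full-medium value of -0.52 became -0.83 or -0.21 without 1 of the ρ0 control libraries.

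The promoters of 3 of these genes are shown because they hold the same short element while the transcripts moved differently, ALDOC with the largest fall, PGK1 (a lower glycolysis enzyme that fell in both lines) and HK2 with a rise in both. The sequences are the 250 bases before the annotated start from RefSeq on GRCh38.p14, written 5′ to 3′ on the strand of the gene, and capitals mark ACGTG or its reverse complement, the core of the element that hypoxia-inducible factors bind.
ALDOC promoter (minus strand, chr17:28576896-28577145): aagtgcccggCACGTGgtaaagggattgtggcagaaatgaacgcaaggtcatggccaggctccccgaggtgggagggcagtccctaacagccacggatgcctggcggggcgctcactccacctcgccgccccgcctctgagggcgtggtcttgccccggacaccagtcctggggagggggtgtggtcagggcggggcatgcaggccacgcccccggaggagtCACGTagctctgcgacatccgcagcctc
PGK1 promoter (plus strand, chrX:78103998-78104247): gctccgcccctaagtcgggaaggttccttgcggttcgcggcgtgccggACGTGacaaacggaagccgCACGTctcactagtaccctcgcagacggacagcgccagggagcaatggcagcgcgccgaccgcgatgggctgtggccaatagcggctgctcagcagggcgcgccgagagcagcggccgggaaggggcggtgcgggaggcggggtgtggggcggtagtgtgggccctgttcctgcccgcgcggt
HK2 promoter (plus strand, chr2:74833877-74834126): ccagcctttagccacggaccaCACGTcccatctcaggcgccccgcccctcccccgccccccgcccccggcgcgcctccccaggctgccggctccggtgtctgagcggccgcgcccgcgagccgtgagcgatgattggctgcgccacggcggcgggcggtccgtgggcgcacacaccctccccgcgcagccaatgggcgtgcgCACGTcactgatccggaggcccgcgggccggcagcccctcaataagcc
In ALDOC the first match starts at -240 and -239 on the 2 strands, which together spell the E-box CACGTG, and the second at -28. In PGK1 the matches start at -202 and -183, and in HK2 at -229 and -48. Over windows from 250 bases before to 50 after the start, which were held here for 36 of the 39 genes (not SLC2A3, SLC16A1 or PFKFB2), ACGTG on either strand was found in 12, namely ALDOA, ALDOC, BPGM, ENO2, GAPDH, GPI, HK2, LDHA, PDK3, PGD, PGK1 and PGM2. The share over 15353 promoters of genes in the count table was 23.8%. Of these 12 genes, 9 fell, 2 rose and 1 was not called under starvation in parental cells, and of the 24 without the letters, 14 fell, 4 rose and 6 were not called. In the interaction, 6 of the 12 had a higher response in ρ0 cells and 0 a lower one, against 8 and 5 of the 24. Of all tested genes, 35.5% were called lower and 30.4% higher in parental starvation, and 18.8% lower and 21.6% higher in the interaction. The calls were not split by these letters over all promoters, and a link between letters and calls was not tested. CACGTG, whose matches lie within ACGTG matches, was in 4 windows (8.75% of all), TGATGNAA, a form of the element of the stress factor ATF4, in 1 (HK1, 2.56% of all), and the TATA box TATAAA in 4 (9.41% of all), each searched on both strands. A match is a description of letters and not a binding site.

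In lower glycolysis, 6 of 8 enzymes fell and 1 rose in parental cells (background 35.5% and 30.4% of all tested genes). In ρ0 cells 5 fell and 1 rose (background 22.1% and 19.2%). These 8 genes took 0.861% and 0.888% of all counts in parental control and 0.553% and 0.564% in parental starved libraries, and 0.882% and 0.958% against 0.598% and 0.593% in ρ0 cells. PKM, the pyruvate kinase of most tumors, went from 2810.0 and 2879 to 1346 and 1377 CPM in parental cells and from 2939 and 2641 to 1491 and 1505 CPM in ρ0 cells. It fell to about the same level in both lines, by 1.06 (adjusted p = 4.02e-05, edgeR) and 0.90 (adjusted p = 0.000342) on the log2 scale, with an interaction of 0.17 (adjusted p = 0.304). GAPDH, often used as a reference transcript, was no constant here, since it fell by 0.57 in parental cells (adjusted p = 0.00061, edgeR) and 0.64 in ρ0 cells (adjusted p = 0.00108) and was higher in ρ0 cells by 0.59 in full medium. PGK1, the first ATP-forming step, had 527 and 507 CPM in parental control, 265 and 268 in parental starved, 854 and 871 in ρ0 control, and 601 and 590.5 in ρ0 starved libraries. Starved ρ0 cells thus kept more PGK1 than unstarved parental cells. The falls were 0.96 (adjusted p = 3.13e-05, edgeR) and 0.53 (adjusted p = 0.00125), the interaction 0.42 (adjusted p = 0.0143), and the difference between starved lines 1.16 (adjusted p = 9.88e-06).

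BPGM, which makes the hemoglobin effector 2,3-bisphosphoglycerate from a glycolytic intermediate, had 13.2 and 14.7 CPM in parental control, 4.39 and 4.43 in parental starved, 22.4 and 20.4 in ρ0 control, and 10.8 and 9.98 in ρ0 starved libraries. It fell by 1.66 (adjusted p = 3.38e-05, edgeR) and by 1.04 (adjusted p = 0.000685). PGAM1, the general phosphoglycerate mutase, had 48.4 and 49.3 CPM in parental control, 32.5 and 32.0 in parental starved, 46.8 and 50.1 in ρ0 control, and 24.6 and 23.3 in ρ0 starved libraries. The control groups overlapped, and the starved ρ0 libraries were lowest. PGAM1 was among the few genes that fell further in ρ0 cells, by 1.02 (adjusted p = 0.000236, edgeR) against 0.60 (adjusted p = 0.000576), with an interaction of -0.42 (adjusted p = 0.0294) that did not pass 0.05 with upper quartile scaling (adjusted p = 0.0725). PGAM2, the muscle form, rose instead. It had 56 and 55 counts in parental control, 163 and 206 in parental starved, 65 and 65 in ρ0 control, and 102 and 98 in ρ0 starved libraries. The log2 fold change was 1.94 in parental (adjusted p = 7.52e-05, edgeR) and 0.79 in ρ0 cells (adjusted p = 0.0119), with an interaction of -1.15 (adjusted p = 0.0109).

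The enolases diverged. ENO2, the neuronal form, was at 118 and 119 CPM in parental control and 41.4 and 41.9 in parental starved libraries, and at 117 and 144 in ρ0 control and 107 and 108 in ρ0 starved libraries. Only the parental starved libraries were low. Parental ENO2 fell by 1.51 ± 0.11 (adjusted p = 2.46e-05, edgeR), its ρ0 value was -0.28 ± 0.10 (adjusted p = 0.0677), and the interaction was 1.23 (adjusted p = 0.00113). ENO1, the ubiquitous form, was called in neither line in the fit of all libraries, with 0.07 in parental and -0.16 in ρ0 cells. GAPDH, PGK1, PGAM1, ENO1, LDHA, PKM and TPI1 have processed pseudogenes that could have taken or lent reads in the counting, so their levels are less certain than those of the other genes.

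Of the genes that make and move lactate, 3 of 4 fell and 1 rose in parental cells (background 35.5% and 30.4% of all tested genes). In ρ0 cells 2 fell and 1 rose (background 22.1% and 19.2%). LDHA, the form that favors lactate, fell by 0.47 (adjusted p = 0.00192, edgeR) and 0.44 (adjusted p = 0.00524), from 1203 and 1223 to 866 and 891 CPM in parental cells and from 1716 and 1531 to 1196 and 1193 CPM in ρ0 cells. LDHB, the form that favors pyruvate, fell by 0.52 and 0.73, from 739 and 779 to 513 and 543 CPM and from 677 and 734 to 427 and 425 CPM. The lactate exporter SLC16A3 (MCT4) had 449.6 and 460.4 CPM in parental control, 291 and 278 in parental starved, 572 and 474 in ρ0 control, and 495 and 479 in ρ0 starved libraries. It fell by 0.68 in parental cells (adjusted p = 0.000717, edgeR) and had a value of -0.10 in ρ0 cells (adjusted p = 0.448), with an interaction of 0.58 (adjusted p = 0.0164). SLC16A1 (MCT1), which carries lactate in either direction, was scarce, with 39 and 23 counts in parental control, 133 and 137 in parental starved, 29 and 36 in ρ0 control, and 106 and 104 in ρ0 starved libraries. Both starved groups were above both control groups. Its rise was 2.35 ± 0.23 in parental cells (adjusted p = 9.97e-05, edgeR) and 1.86 ± 0.23 in ρ0 cells (adjusted p = 0.000983), and the interaction was not called (-0.49, adjusted p = 0.277). With limma-voom and group weights, the rise in ρ0 cells had adjusted p = 0.0809.

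All 7 regulators were called in starved parental cells, 5 lower and 2 higher (background 35.5% and 30.4% of all tested genes). In starved ρ0 cells 3 were called, 2 lower and 1 higher (background 22.1% and 19.2%). The PFKFB enzymes make and remove fructose 2,6-bisphosphate, the strongest activator of phosphofructokinase. PFKFB3, the form with the highest kinase activity, had 141 and 132 CPM in parental control, 235 and 237 in parental starved, 54.8 and 64.2 in ρ0 control, and 69.3 and 69.3 in ρ0 starved libraries. PFKFB2, the heart form, ran the other way, with 26.2 and 21.6, 9.54 and 9.64, 80.4 and 128, and 64.7 and 65.9 CPM in the same order. PFKFB4, often found with PFKFB3 in hypoxic tumors, had 17.4 and 17.1 CPM in parental control, 3.40 and 3.30 in parental starved, 35.0 and 22.8 in ρ0 control, and 18.2 and 18.8 in ρ0 starved libraries. Parental libraries thus held more PFKFB3 than every ρ0 library, and ρ0 libraries more PFKFB2 than every parental one. In parental cells PFKFB3 rose by 0.79 (adjusted p = 0.000221, edgeR) while PFKFB4 fell by 2.36 (adjusted p = 6.53e-05) and PFKFB2 by 1.32 (adjusted p = 0.00124). In ρ0 cells the values were 0.22 (adjusted p = 0.0982), -0.64 (adjusted p = 0.0299) and -0.67 (adjusted p = 0.0319) from the same edgeR fit. Without 1 or the other ρ0 control library, that of PFKFB4 was -0.30 or -0.91 and that of PFKFB2 -0.97 or -0.29. The response differed between the lines for PFKFB4 (1.72, adjusted p = 0.00353, edgeR) and PFKFB3 (-0.57, adjusted p = 0.0129) and was not called for PFKFB2 (0.64, adjusted p = 0.123). Between the lines in full medium, PFKFB2 was higher by 2.12 (adjusted p = 0.000104, edgeR) and PFKFB3 lower by 1.20 (adjusted p = 3.35e-05) in ρ0 cells. When starved, these differences were 2.77 and -1.77, and PFKFB4 was 2.47 higher. The full-medium value of PFKFB4, 0.74 (adjusted p = 0.0102, edgeR), became 0.40 or 1.08 without 1 of the ρ0 control libraries.

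The PDKs phosphorylate and switch off pyruvate dehydrogenase and so restrain the burning of pyruvate in mitochondria. PDK1 had 23.6 and 20.4 CPM in parental control, 50.9 and 48.2 in parental starved, 38.2 and 42.3 in ρ0 control, and 49.7 and 50.6 in ρ0 starved libraries, so that starvation brought both lines to about the same level. PDK1 rose by 1.17 in parental cells (adjusted p = 6.52e-05, edgeR), and its rise of 0.32 in ρ0 cells (adjusted p = 0.0428) did not pass 0.05 in several alternatives (adjusted p = 0.0582 with upper quartile scaling). The other PDKs fell in parental cells. PDK3 went from 34.3 and 31.9 to 12.2 and 13.3 CPM in parental cells and from 42.0 and 25.7 to 22.9 and 21.2 CPM in ρ0 cells, with log2 fold changes of -1.38 (adjusted p = 0.000952, edgeR) and -0.62 (adjusted p = 0.0501). The ρ0 value was -0.22 or -0.92 without 1 of the ρ0 control libraries. PDK4, scarce in all groups, had 106 and 104 counts in parental control, 35 and 40 in parental starved, 141 and 168 in ρ0 control, and 142 and 138 in ρ0 starved libraries. Only the parental starved libraries were low, with a log2 fold change of -1.27 (adjusted p = 0.000739, edgeR) against 0.03 in ρ0 cells (adjusted p = 0.939). PDK2 fell by 0.90 in parental cells (adjusted p = 0.000729, edgeR) and had a value of 0.09 in ρ0 cells (adjusted p = 0.614). The interaction was called for PDK4 (1.30, adjusted p = 0.00676, edgeR), PDK2 (0.99, adjusted p = 0.00625) and PDK1 (-0.85, adjusted p = 0.00429), but not for PDK3 (0.76, adjusted p = 0.0814).

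Of the pentose phosphate genes, 2 of 6 were higher and 2 lower in parental cells and 1 higher and 1 lower in ρ0 cells. The parental shares, 33.3% each way, were near those over all tested genes, 30.4% higher and 35.5% lower. RPIA, which makes ribose 5-phosphate for nucleotides, had 53.9 and 55.8 CPM in parental control, 109 and 112 in parental starved, 24.97 and 35.5 in ρ0 control, and 49.7 and 44.0 in ρ0 starved libraries. Starvation raised it in both lines, by 1.01 (adjusted p = 0.000817, edgeR) and 0.63 (adjusted p = 0.0155), and the ρ0 value was 0.41 or 0.92 without 1 of the ρ0 control libraries. At either condition ρ0 cells had less RPIA, by 0.86 in full medium (adjusted p = 0.00213, edgeR) and 1.24 when starved (adjusted p = 0.000289). PGD, which yields NADPH in the oxidative branch, rose by 0.50 in parental cells (adjusted p = 0.00071, edgeR) and had a value of 0.21 in ρ0 cells (adjusted p = 0.0536). PGLS, which opens the lactone before that step, had 38.3 and 46.1 CPM in parental control, 35.7 and 32.2 in parental starved, 62.2 and 64.7 in ρ0 control, and 76.2 and 71.1 in ρ0 starved libraries. It was higher in ρ0 cells by 0.59 in full medium (adjusted p = 0.00255, edgeR) and 1.12 when starved (adjusted p = 9.62e-05), and its small fall in parental cells (-0.31, adjusted p = 0.04) had adjusted p = 0.0515 under DESeq2. TALDO1, a transaldolase of the branch back to glycolysis, fell by 0.59 and 0.30. TKT, the transketolase of that branch, was called in neither line and was higher in ρ0 cells by 0.86 in full medium (adjusted p = 0.000853, edgeR) and 0.43 when starved. RPE, an epimerase, was called in no comparison. With the parental libraries fitted alone, RPE and TKT were called higher under starvation (0.41 and 0.26).

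**Figure D2:**
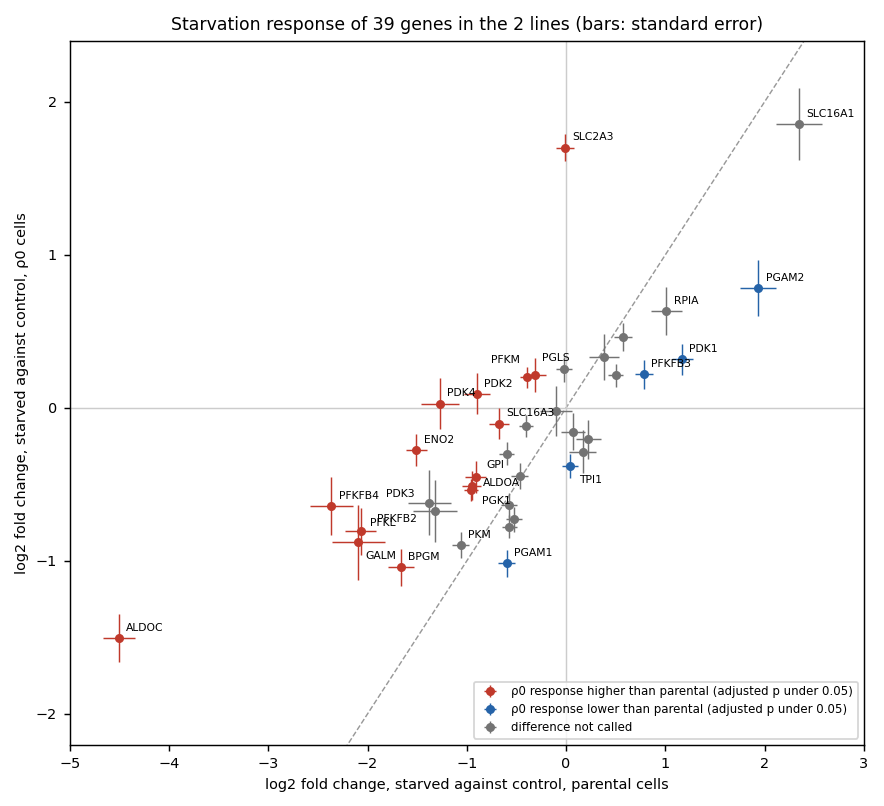
Log2 fold change of each of the 39 genes under starvation in parental cells (horizontal axis) and in ρ0 cells (vertical axis), with standard errors as bars and equal responses on the dashed line. Colored points are the 20 genes whose response differed between the lines, 15 higher (red) and 5 lower (blue) in ρ0 cells. ALDOC lies farthest left, and SLC2A3 lies near 0 in parental and at 1.70 in ρ0 cells.

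The plot of both responses shows that the 15 genes with a higher response in ρ0 cells were of several kinds. Most of them fell in both lines and fell less in ρ0 cells, as ALDOC, PFKL, PFKFB4, GALM, BPGM, GPI, ALDOA and PGK1 did. Others fell in parental cells and were not called in ρ0 cells, as were ENO2, PDK2, PDK4, PFKM, PGLS and SLC16A3. SLC2A3 was the 1 gene that rose in ρ0 cells without a call in parental cells and had a called interaction. The 5 genes with a lower response included PGAM2, PDK1 and PFKFB3, which rose more in parental cells. The others were PGAM1, which fell more in ρ0 cells, and TPI1, which fell in ρ0 cells and was not called in parental cells. Of the 20 interactions, 9 were called under every alternative, namely SLC2A3, PFKL, PFKM, ALDOC, ENO2, PFKFB4, PDK1, PDK2 and PDK4.

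**Figure D3:**
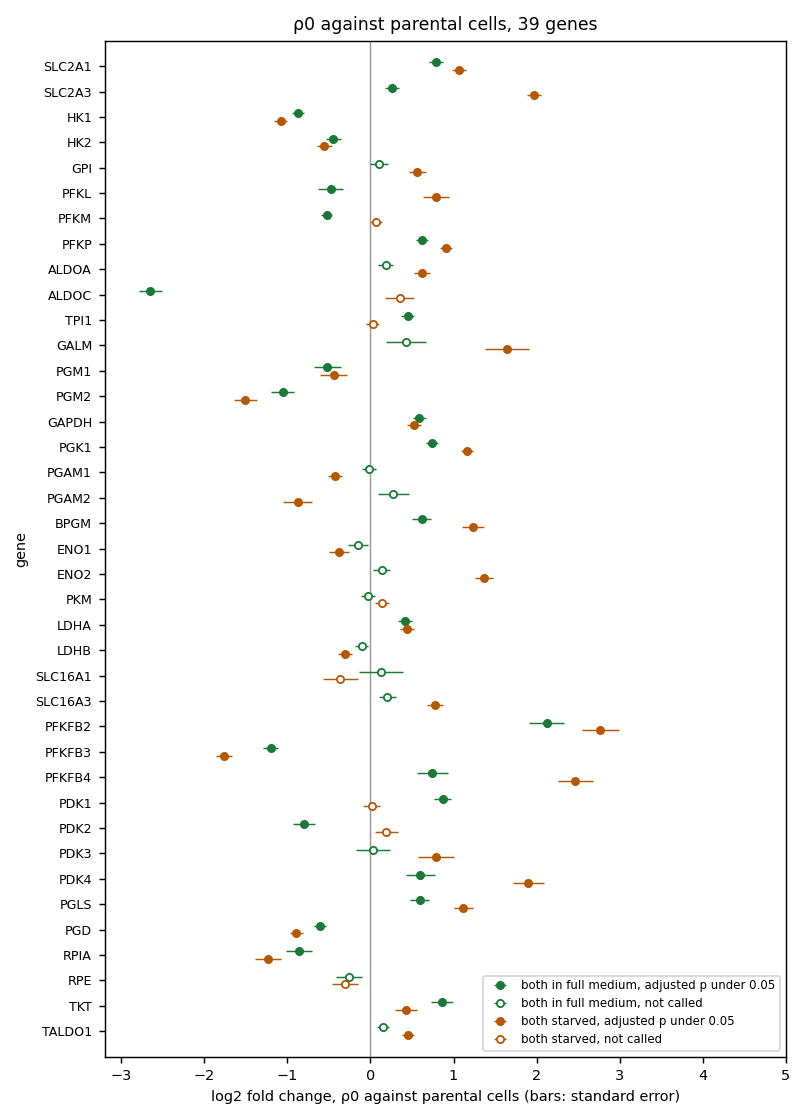
Log2 fold change of ρ0 against parental cells for the 39 genes, in full medium (green) and when both lines were starved (orange), with standard errors as bars and open circles where the difference was not called. Differences beyond 1 number 4 in full medium and 14 under starvation, and PFKFB2, PFKFB4 and SLC2A3 lie farthest right when starved.

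Across the lines, 12 genes were higher in ρ0 cells both with and without arginine, namely BPGM, GAPDH, LDHA, PDK4, PFKFB2, PFKFB4, PFKP, PGK1, PGLS, SLC2A1, SLC2A3 and TKT. The 7 lower in both were HK1, HK2, PFKFB3, PGD, PGM1, PGM2 and RPIA. Here too the joint counts were not made over all tested genes. Among those higher when starved and not called in full medium were GALM (1.64, adjusted p = 0.00104, edgeR) and ENO2 (1.37, adjusted p = 2.69e-05), and BPGM and PDK4 reached 1.24 and 1.90. Among the 19 genes called in the same direction in both conditions, the line difference was wider when starved by the interaction test for BPGM, PDK4, PFKFB4, PGK1, PGLS, SLC2A3 and PFKFB3, and the change was not called for the others. The identity markers named above also differed between the lines, with FOXA1 found in parental and CDH1 in ρ0 libraries, and their part in the line differences was not tested.

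The balance between isozymes was read from the ratio of their counts within a library, which needs no scaling between libraries, and whose change between groups does not depend on gene length. The HK2 to HK1 ratio was 0.598 and 0.548 in parental control, 1.30 and 1.23 in parental starved, 0.736 and 0.800 in ρ0 control, and 1.77 and 1.87 in ρ0 starved libraries. It was 2.21-fold higher in starved parental and 2.37-fold higher in starved ρ0 cells, without overlap. For PFKFB3 to PFKFB2 the ratio was 5.41 and 6.13 in parental control, 24.7 and 24.6 in parental starved, 0.682 and 0.502 in ρ0 control, and 1.07 and 1.05 in ρ0 starved libraries. It was 9.84-fold lower in ρ0 cells in full medium and 23.2-fold lower when starved. PDK1 to PDK2 went from 0.531 and 0.427 to 2.03 and 1.97 in parental cells, 4.19-fold higher, whereas the ρ0 groups overlapped (1.27 and 1.83 in control, 1.81 and 1.73 when starved).

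The PGAM2 to PGAM1 ratio was 5.81-fold higher in starved parental and 3.49-fold higher in starved ρ0 cells. ENO2 to ENO1 was 2.99-fold lower in starved parental and 1.09-fold lower in starved ρ0 cells, and ALDOC to ALDOA was 11.8-fold and 1.99-fold lower. SLC2A3 to SLC2A1 was 2.73-fold higher in starved ρ0 cells, going from 0.113 in both control libraries to 0.307 and 0.310, and the parental groups overlapped. In the lactate genes, SLC16A1 to SLC16A3 was 8.38-fold and 3.89-fold higher under starvation, although SLC16A3 kept by far the more counts. LDHB to LDHA was 1.44-fold lower in ρ0 than in parental cells in full medium and 1.68-fold lower when starved. PFKP to PFKM was 2.22-fold and 1.79-fold higher in ρ0 cells, and PGM2 to PGM1 was 2.10-fold lower in starved ρ0 cells. No test was run on these ratios.

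**Figure D4:**
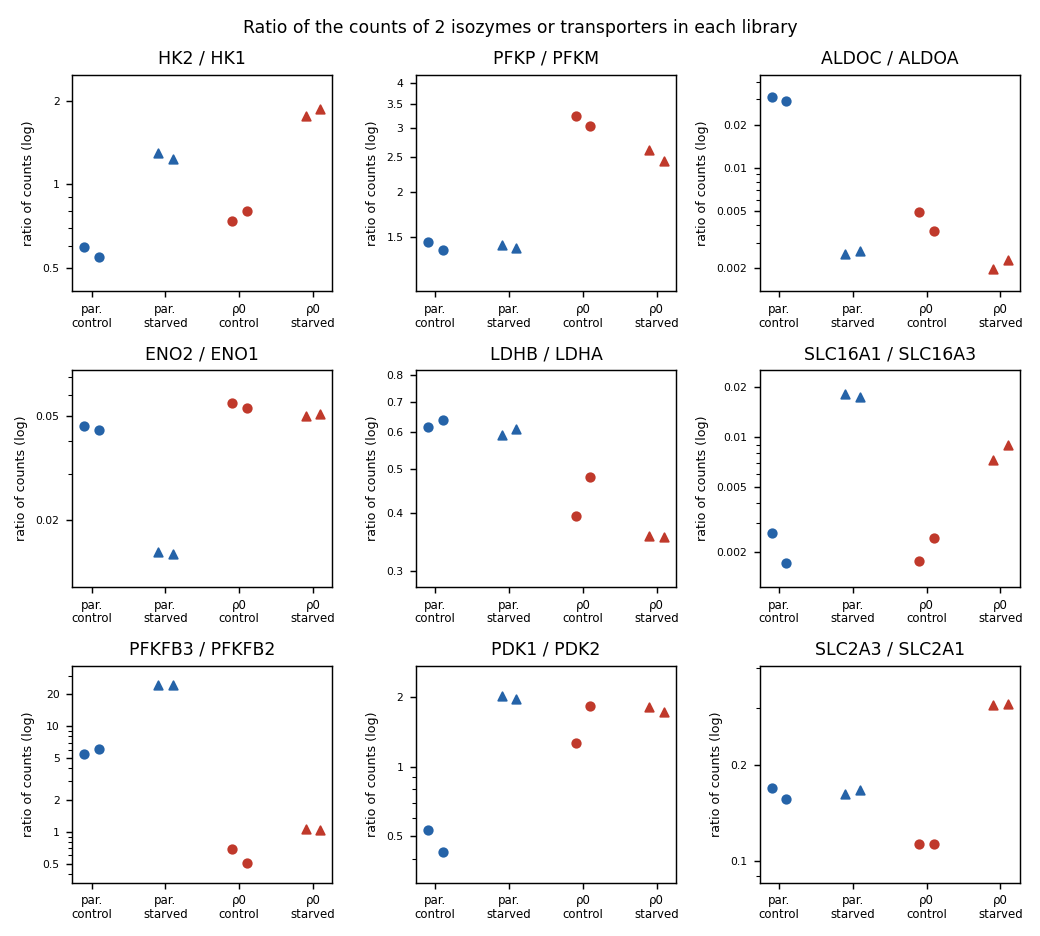
Ratio of the counts of 2 isozymes or transporters in each library (log axis) for 9 pairs, with parental libraries in blue, ρ0 libraries in red, controls as circles and starved libraries as triangles. HK2 to HK1 is higher in the starved libraries of both lines, PDK1 to PDK2 and ENO2 to ENO1 move in parental cells, and PFKFB3 to PFKFB2 separates all parental from all ρ0 libraries.

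Expressed per length, as the share of an isozyme in the summed counts per kilobase of its family, PFKFB3 made up 51.2% of the PFKFB family in parental control and 84.3% in parental starved cells, and 11.6% and 19.4% in ρ0 cells, where PFKFB2 held 74.0% and 68.0% (means of 2 libraries). These levels depend on the length taken for each gene. With the longest annotated transcript in place of the median one, PFKFB3 held 78.7% and 95.8% in parental and 36.6% and 51.6% in ρ0 cells. In the PDK family, PDK1 went from 23.4% to 57.6% in parental cells with the median length and from 6.77% to 25.3% with the longest. HK2 went from 7.33% to 14.9% in parental and from 9.58% to 20.04% in ρ0 cells with the median length, and from 28.4% to 46.7% and from 34.7% to 55.7% with the longest. The direction of these shifts was the same with both lengths. The hexokinase share covers HK1 and HK2 alone and leaves out HKDC1, which had 5067 and 3981 counts in ρ0 starved libraries against 4478 and 3545 for HK1.

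Other genes of these pathways were taken from a list of 56, of which 42 were tested. Under starvation 8 were higher and 11 lower in parental cells and 5 higher and 13 lower in ρ0 cells. These were 19.0% and 26.2% in parental cells, against 30.4% and 35.5% of all tested genes, and 11.9% and 31% in ρ0 cells, against 19.2% and 22.1%. PCK2, the mitochondrial enzyme that turns oxaloacetate into phosphoenolpyruvate, rose in both lines, by 1.32 (adjusted p = 0.000838, edgeR) and 1.21 (adjusted p = 0.00294). TIGAR, a phosphatase that lowers fructose 2,6-bisphosphate, rose in parental cells by 1.68 (adjusted p = 3.82e-05, edgeR), with 0.27 in ρ0 cells (adjusted p = 0.137) and an interaction of -1.41 (adjusted p = 0.00151). PDHB, a subunit of pyruvate dehydrogenase, fell by 1.50 in parental and 0.44 in ρ0 cells, and EMB, a chaperone of the lactate transporters, fell by 1.66 and 1.01. LDHD, a mitochondrial enzyme that oxidizes D-lactate, had 77 and 78 counts in parental control and 1 and 1 in parental starved libraries, against 48 and 33 in ρ0 control and 18 and 20 in ρ0 starved libraries.

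In the line comparison, 17 of the 42 were higher and 11 lower in ρ0 cells in full medium, and 16 and 11 when starved. These were 40.5% and 26.2% in full medium, against 30.5% and 31.8% of all tested genes, and 38.1% and 26.2% when starved, against 32.9% and 33.5%. HKDC1, a hexokinase-like gene, had 115 and 91 counts in parental control, 159 and 185 in parental starved, 1594 and 1467 in ρ0 control, and 5067 and 3981 in ρ0 starved libraries. It was higher in ρ0 cells by 3.95 in full medium (adjusted p = 6.58e-07, edgeR), and starvation raised it by 0.96 in parental and 1.71 in ρ0 cells. FBP1, a gluconeogenic phosphatase that opposes phosphofructokinase, was higher in ρ0 cells by 2.85 (adjusted p = 1.35e-05, edgeR). SLC16A7 (MCT2), which takes up lactate and pyruvate with high affinity, was lower by 3.26 (adjusted p = 9.17e-06), with 3481 and 2282 counts in parental control against 231 and 347 in ρ0 control libraries. SLC2A10, which encodes GLUT10, had 0 to 3 counts in the parental libraries and 98 to 299 in the ρ0 libraries. Other members of the SLC2A family went both ways. SLC2A6 had 325 and 309 counts in parental control and 1163 and 969 in ρ0 control libraries. In the same groups SLC2A4 had 125 and 138 against 8 and 12, and SLC2A12 had 869 and 717 against 445 and 127.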

How the data were processed

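RNA-seq read counts of 8 MDA-MB-231 libraries (parental and ρ0 clone 27 cells, each with and without ADI at 0.3 µg/mL for 48 h) were analysed. The authors deposited 1 table of raw counts per gene symbol, without normalization. The submitters' processing notes name Bowtie, Partek and the build hg19, while versions, the annotation and the strand setting of the counting are not given in the sources used here. The paper describes arginine-free medium, and the labels describe ADI.

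For the tests, edgeR 4.0.16 (R 4.3.3) was used, with TMM scaling and 15262 of 23393 genes kept by filterByExpr on the 4 groups. All 8 libraries entered 1 quasi-likelihood fit with a mean for each group, which left 4 residual degrees of freedom. Table totals were 25259503 to 31022155 counts per library, and the biological coefficient of variation was 12.4%. Benjamini-Hochberg adjustment covered all genes tested. Calls used an adjusted p of 0.05, with a log2 fold change beyond 1 where stated. CPM are counts scaled to equal library size after TMM. A standard error was taken as the size of the log2 fold change over the root of its F statistic.

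Genes given in every library were those beyond a log2 fold change of 1 in a comparison and members of isozyme families whose shares moved by more than 10 percentage points. PFKM, PFKP, PGM1 and PDK2 also moved by more than 10 points, but they are given by fold changes and ratios and not as levels per library. Other pathway genes, and further genes given in every library, were chosen after their values were seen. The 39 genes, the other lists and the alternatives were chosen with earlier results of these data known. Transcript lengths came from GENCODE v29, and promoters from RefSeq on GRCh38.p14, by symbol.

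Alternatives were other scalings, filters and tests (DESeq2 1.42.0, limma 3.58.1), blocking by replicate number, 1-line fits and leaving out each library. The test was checked on simulated counts, drawn with 1 spread per gene that was equal in all 4 groups. The check therefore does not cover the wider spread of the ρ0 control libraries. Of 200 changed genes among 14879 simulated for starvation in parental cells, 97% of 4-fold and 75% of 2-fold changes were called, with 12 false calls, and for the interaction (14876 genes) 95% and 48% were called.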

Additional observations from a re-analysis of the deposited data

Results flagged for a closer look

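The starvation response of 20 of the 39 genes differed between ρ0 and parental cells by the interaction test (adjusted p under 0.05, edgeR's quasi-likelihood test with Benjamini-Hochberg adjustment). The response in ρ0 cells minus that in parental cells, on the log2 scale, was above 0 for 15 genes. Among them it was 1.71 for the glucose transporter SLC2A3 and, in upper glycolysis and the sugar mutases, 3.0 for ALDOC, 1.26 for PFKL, 1.21 for GALM, 0.595 for PFKM, 0.461 for GPI and 0.441 for ALDOA. In lower glycolysis and lactate export it was 1.23 for ENO2, 0.620 for BPGM, 0.577 for SLC16A3 and 0.424 for PGK1. Among the regulators it was 1.72 for PFKFB4, 1.30 for PDK4 and 0.988 for PDK2, and in the pentose phosphate pathway 0.527 for PGLS. It was below 0 for 5 genes, with -1.15 for PGAM2, -0.852 for PDK1, -0.566 for PFKFB3, -0.422 for TPI1 and -0.417 for PGAM1. The ρ0 response uses the 2 control libraries that stood apart from each other. No group was large enough to look for single libraries far from the others by Dixon's criterion.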

How the results depend on the processing

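Each of the 39 genes was tested again under 10 other settings for starvation within a line and 9 for the other comparisons, and with each of 8 libraries left out. For starvation in parental cells, 30 of 31 calls were made in every alternative, the exception being PGLS. For ρ0 starvation 9 of 24 were, for the lines in full medium 20 of 25, for the starved lines 26 of 31 and for the interaction 9 of 20.

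Fits to 1 line alone gave 11 genes higher in parental cells, with ENO1, PGM2, RPE and TKT added (5875 of all 14509 tested). In ρ0 cells they gave 2 higher and 9 lower (1462 and 1665 of all 14127 tested). With limma-voom and group weights, 3 rose in starved ρ0 cells (1797 of all 15262 tested). Upper quartile scaling and total counts each left 3 genes with a lower response in ρ0 cells (2280 and 2313 of all 15262 tested). Both shifted the median over all genes, to -0.19 and -0.23 in parental starvation and to 0.12 and 0.11 in the interaction. The cause of these changes was not tested.

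Leaving out 1 library gave 7 to 11 genes higher in parental starvation, 4 to 12 higher and 8 to 22 lower in ρ0 starvation, and 8 to 22 higher and 1 to 14 lower in the interaction. The group then has 1 library, assumed to vary like the other groups, and without a ρ0 control library, whose pair was the widest, the remaining spread is that of the closer pairs. In ρ0 starvation the numbers were 12 and 22 without ρ0 control replicate 1, 11 and 21 without replicate 2, and 4 and 8 to 9 without a ρ0 starved library. In the interaction the median was 0.33 without ρ0 control replicate 1 and 0.167 without replicate 2. Without a ρ0 control library, PGM1 ranged from -0.26 to 0.29 in ρ0 starvation and from -0.20 to 0.39 in the interaction, and in full medium PKM ranged from -0.11 to 0.10 and PDK3 from -0.37 to 0.40 between the lines, all uncalled with all libraries.

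Replicate numbers did not pair the libraries, since deviations of same-numbered libraries correlated at -0.05 to 0.04. The replicate block gave 7 higher and 23 lower in parental starvation, 5 and 18 in ρ0 starvation, and 14 and 4 in the interaction. Of all 15262 tested genes it gave 4553 and 5343, 2799 and 3116, and 3098 and 2633 in the same order. It left the counts of both line comparisons at 14 and 11 and at 20 and 11 (4526 and 4772, and 4963 and 5027, of all tested genes). Of 54 isozyme shares recomputed with other lengths, 45 moved by more than the spread between replicates and 0 changed direction. With 2 libraries per group, values near the threshold are the least certain.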
